A study of Mus musculus with 6 samples.

Results

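DNA damage response and repair genes were followed in 5C.C7 T cells that lacked CTLA-4 and in wild-type 5C.C7 T cells, 4 days after immunization. The module was chosen by name as 33 genes of homologous recombination, the Fanconi anaemia pathway, end joining, mismatch repair, base excision and single-strand break repair, and checkpoint signalling. A gene entered where the array annotation gave a probe set to it alone, and the probe set with the highest mean log2 value over all 6 arrays stood for it. In this way 31 of the 33 genes, read by 72 probe sets, were followed among 11990 measured genes. Xrcc2 and Trp53 were not analysed here. All 31 passed the filter on dim probe sets, which used the mean over all arrays and not the genotype.

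5C.C7 is a transgenic T cell receptor, and it recognises a moth cytochrome c (MCC) peptide. The CTLA-4 KO donors were 5C.C7 mice that were RAG2-/-, CD45.1 and CTLA-4-/-, and the wild-type donors were 5C.C7, RAG2-/- and CD45.1 with CTLA-4 intact. The T cells were moved into B10.A recipients, which received MCC peptide and LPS, and were recovered by sorting on day 4. There were 3 arrays of each genotype, with 2 µg of total RNA behind each array. Cells of both genotypes thus lack RAG2, see 1 peptide through 1 receptor, and sit in recipients that are not described as lacking CTLA-4 or T cells of their own. The age of the animals and the number of mice behind an array are not given in the sources used here.

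Homologous recombination copies the sister chromatid to mend DNA breaks, and its genes are mostly transcribed in S phase and G2. End joining ligates broken ends at any stage of the cell cycle. Mismatch repair corrects errors left by the replication polymerases, and the Fanconi anaemia pathway removes crosslinks between strands. The kinases ATM and ATR signal breaks and stalled forks to CHEK2 and CHEK1, which hold the cell cycle, and p53 induces arrest and death genes downstream. T cells that divide quickly after antigen carry a high load of replication errors and stalled forks.

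The design asks how the expression profile differs between the genotypes. Ctla4 itself had intensities of 811.7, 790.6 and 784.1 in CTLA-4 KO arrays 1, 2 and 3, against 5332, 4787 and 4587 in wild-type arrays. The KO level was 16.2% of the wild-type level, and the groups did not overlap (limma adjusted p = 1.45e-06, exact permutation test counting both directions, p = 0.1, the smallest that 20 arrangements allow). All 9 T cell markers with a probe set were above the floor of 35.4 in intensity, and they summed to 68600 to 69000 in CTLA-4 KO and 68300 to 76400 in wild type. Their means were higher in CTLA-4 KO for 4, such as Cd4, at 5470 ± 461 in CTLA-4 KO and 5150 ± 241 in wild type (SD, n = 3 arrays). They were lower for 5, of which Cd28, at 9470 ± 232 and 12000 ± 525, had the smallest adjusted p in limma (0.0731). The summed B cell markers spanned 875 to 1450 in CTLA-4 KO and 457 to 802 in wild type, with 5 of 9 above the floor. Of these Cd22 rose, at 887 ± 179 in CTLA-4 KO and 214 ± 42.5 in wild type, and Cd79b, Ms4a1, Blk and Vpreb3 had means of 37.9 to 91.5 and 51.8 to 110. Cd79a and Ebf1 were under the floor in both. Myeloid markers summed to 421 to 657 and 473 to 562, and CD8 markers to 315 to 513 and 262 to 422, in CTLA-4 KO and wild type. Arrays 2 of both genotypes came from female donors by Xist and Eif2s3y and the others from male donors. The 5' to 3' signal ratio of Actb, a sign of RNA integrity, was 0.567, 0.691 and 0.544 in CTLA-4 KO arrays, against 0.418, 0.41 and 0.584 in wild-type arrays. The titles number the arrays of both genotypes 1 to 3, and arrays of the same number deviated together from their group means. Each test is therefore given without and with replicate number as a block.

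A minority of the repair genes passed the test for a higher level in CTLA-4 KO cells, and none passed the test for a lower level. By sign alone, 18 of the 31 differences were positive and 13 negative, against 6026 and 5964 over all genes. Msh6, a subunit of the mismatch-sensing complex, rose without the block, and Msh6, Exo1, Rad51ap1, Brca1, Rad54l and Ung rose with it. Without the block 1 of 31 genes rose, or 3.23%, against 1.19% of all genes, and 0 fell, against 0.5% of all genes (limma, adjusted p under 0.05 over all probe sets). With the block 6 of 31 rose, or 19.4%, against 5.48% of all genes, and 0 fell, against 3.44%. At an unadjusted p under 0.05 without the block, 7 members had positive differences and 2, Atr and Trp53bp1, negative ones. Over all 11990 genes these counts were 1129 and 852. All 3 CTLA-4 KO arrays lay above all wild-type arrays for 5 of the 31 genes, or 16.1%, against 12.2% of all genes, and below them for 3, or 9.68%, against 10.6%. Both shares are near those of all genes. The median log2 difference, CTLA-4 KO minus wild type, was 0.12 over the 31 genes and 0.00 over all genes. It ranged from -0.34 for Atr to 1.04 for Exo1. The count of 1 became 0 in 4 of the 6 fits that left out an array and with a term for the Actb ratio. Among the 6 fits that left out an array, Msh6 itself passed only when wild-type array 1 was left out. The count of 6 became 2, Rad51ap1 and Msh6, when the block and the Actb ratio stood in 1 model, a choice added after seeing the data.

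**Figure D1:**
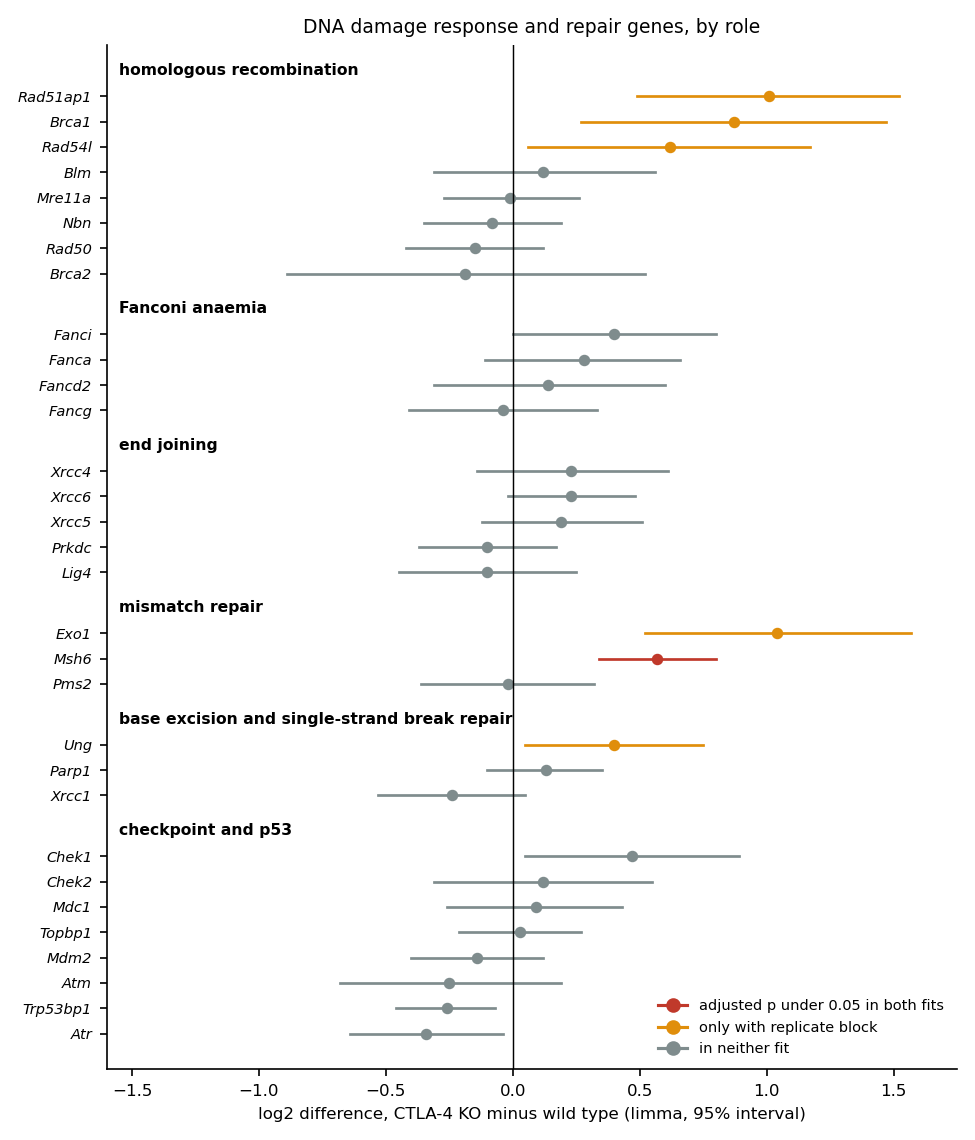
Log2 difference, CTLA-4 KO minus wild type, of each of the 31 genes, ordered by role, with limma's 95% interval from the fit without the block (n = 3 arrays per genotype). Red marks the gene called in both fits, orange the 5 called only with the replicate block, and grey the 25 called in neither; the coloured points lie between 0.40 and 1.04.

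The promoters of 4 genes are shown because they set a gene that rose in both fits (Msh6) and genes that rose with the block (Rad51ap1, Brca1) beside an end joining gene that was not called (Xrcc6). The sequences are those of RefSeq on GRCm38.p6, 250 bases before to 50 bases after the start, read 5′ to 3′ on the strand of the gene. Capitals mark E2F-type motifs, the sites of the factors that drive S-phase transcription. The letters searched on both strands were TTTCCCGC, TTTGGCGC, TTTGCCGC, TTTCGCGC and GGCGGGAA, and the first and last overlap where TTTCCCGC is followed by C. Msh6 lies at chr17:87974800-87975099 on the plus strand, Rad51ap1 at chr6:126939538-126939837 on the minus strand, Brca1 at chr11:101551906-101552205 on the minus strand, and Xrcc6 at chr15:82016119-82016418 on the plus strand.
Msh6: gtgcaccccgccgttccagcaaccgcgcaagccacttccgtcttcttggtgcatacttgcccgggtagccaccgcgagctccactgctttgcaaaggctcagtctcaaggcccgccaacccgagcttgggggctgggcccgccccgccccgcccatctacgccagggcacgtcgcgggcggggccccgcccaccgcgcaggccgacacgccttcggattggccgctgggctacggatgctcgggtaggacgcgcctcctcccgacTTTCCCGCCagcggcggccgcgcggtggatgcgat
Rad51ap1: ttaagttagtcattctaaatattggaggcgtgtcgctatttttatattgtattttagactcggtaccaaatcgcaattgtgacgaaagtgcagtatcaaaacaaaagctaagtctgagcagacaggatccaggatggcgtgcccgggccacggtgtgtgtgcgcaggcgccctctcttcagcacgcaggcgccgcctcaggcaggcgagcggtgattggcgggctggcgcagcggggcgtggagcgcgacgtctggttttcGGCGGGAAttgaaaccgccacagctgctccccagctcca
Brca1: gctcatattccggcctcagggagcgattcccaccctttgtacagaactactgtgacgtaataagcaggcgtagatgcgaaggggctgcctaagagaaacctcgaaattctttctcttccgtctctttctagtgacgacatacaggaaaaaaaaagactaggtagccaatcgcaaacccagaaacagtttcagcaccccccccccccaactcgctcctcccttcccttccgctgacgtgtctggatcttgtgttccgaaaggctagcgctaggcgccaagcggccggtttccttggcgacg
Xrcc6: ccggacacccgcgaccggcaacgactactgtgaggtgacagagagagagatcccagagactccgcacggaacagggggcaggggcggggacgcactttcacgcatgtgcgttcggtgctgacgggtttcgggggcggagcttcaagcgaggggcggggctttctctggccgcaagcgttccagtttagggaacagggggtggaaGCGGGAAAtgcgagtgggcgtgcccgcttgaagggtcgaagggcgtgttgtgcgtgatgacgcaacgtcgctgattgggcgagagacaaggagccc
The Msh6 match covers bases 16 to 24 after the start, where the 2 overlapping motifs make 1 run, and the Rad51ap1 match covers bases 12 to 19. Xrcc6 holds its match before the start, at -46 to -39, and Brca1 holds none of these letters in this window. Lig4, Xrcc4 and Xrcc5, the other end joining genes with a promoter entry, hold none either. Of the 26 members in the promoter table, 9 held a match, or 34.6%, against 4.46% of the 27025 genes in that table and 7.93% of the 9707 of them that passed the filter. The share was 45.5% of 11 genes listed as induced in S phase and 26.7% of the other 15, and it was 2 of the 5 called genes with an entry. A match describes the letters and is no measurement of binding.

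Among homologous recombination genes 3 of 8 rose with the block, against 5.48% of all genes, and 0 without it. At an unadjusted p under 0.05 in limma, 3 were higher without the block, against 1129 of 11990 genes. Rad51ap1, whose product stimulates strand exchange, had 678, 906.6 and 491.3 in CTLA-4 KO arrays 1, 2 and 3, against 428.9, 284.9 and 281.3 in wild-type arrays. Every CTLA-4 KO array was above every wild-type array, and KO array 2 was the highest. This gave a log2 difference of 1.01 ± 0.23 (SE; adjusted p of 0.0688 in limma, and 0.00408 with the block). A second probe set of Rad51ap1 had 0.99, and a dim one, at a mean of 53.7, had 0.52 and passed in neither fit (adjusted p = 0.48 in limma, and 0.346 with the block). Brca1, a ubiquitin ligase of the recombination pathway, had 679.5, 613.3 and 374.1 in CTLA-4 KO arrays, against 431.6, 220.3 and 249.9 in wild-type arrays. The groups overlapped, because wild-type array 1 was above KO array 3, but KO was the higher array within each number. The log2 difference was 0.87 ± 0.27 (adjusted p = 0.156, and 0.00875 with the block), and the dimmer second probe set, at a mean of 76.3, had -0.10. Rad54l, a motor protein that remodels the paired strands, had 523.4, 401.1 and 281.2 in CTLA-4 KO arrays, against 336.5, 191.3 and 237.8 in wild-type arrays. Its groups overlapped too, with KO higher within each number (0.62 ± 0.25, adjusted p = 0.268, and 0.0382 with the block), and its other probe sets had 0.70 and 0.65.

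The remaining recombination genes passed in neither fit. Brca2, a mediator of strand exchange at the break, had 378.3, 238.7 and 137.3 in CTLA-4 KO arrays, against 337.8, 287.4 and 194.8 in wild-type arrays. Its differences within the numbered pairs were 0.16, -0.25 and -0.46, so the pairs did not share a direction. The helicase gene Blm had a log2 difference of 0.12, with 0.40, 0.37 and -0.39 within the pairs. Rad50, Mre11a and Nbn encode the complex that binds and trims broken ends. Rad50 averaged 1050 ± 101 in CTLA-4 KO and 1170 ± 85.9 in wild type, Mre11a 717 ± 30.3 and 720 ± 5.68, and Nbn 1020 ± 52 and 1080 ± 99.8 (SD, n = 3 arrays). The 95% intervals of their log2 differences ran from -0.42 to 0.12, from -0.27 to 0.26 and from -0.35 to 0.19.

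None of the 4 Fanconi anaemia genes passed in either fit, where 1.19% of all genes rose and 0.5% fell without the block, and 5.48% and 3.44% with it. Fanci, whose product pairs with that of Fancd2 on damaged DNA, had 202.2, 224 and 194.9 in CTLA-4 KO arrays, against 159.7, 170.6 and 132 in wild-type arrays. The groups did not overlap, but the log2 difference of 0.40 ± 0.18 did not pass (adjusted p = 0.327, and 0.188 with the block). Fancd2 was dim, at 101 ± 4.83 in CTLA-4 KO and 90.2 ± 11 in wild type. Fanca and Fancg, of the core ubiquitin ligase, had log2 differences of 0.28 and -0.04, with 95% intervals from -0.11 to 0.66 and from -0.41 to 0.33.

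All 5 end joining genes also passed in neither fit, with log2 differences from -0.10 to 0.23. Over all genes 1.19% rose and 0.5% fell without the block, and 5.48% and 3.44% with it. At such shares, a count of 0 among 5 genes says little about end joining. Xrcc6, which encodes the Ku70 subunit of the ring that caps broken ends, had 1408, 1391 and 1275 in CTLA-4 KO arrays, against 1221, 1153 and 1091 in wild-type arrays. Every CTLA-4 KO array was above every wild-type array, yet the difference of 0.23 ± 0.11 did not pass (adjusted p = 0.354, and 0.164 with the block). The mean over its probe sets, including a dim one at 49.8, was -0.12. Its partner Xrcc5, or Ku80, averaged 1020 ± 107 in CTLA-4 KO and 890 ± 124 in wild type, a log2 difference of 0.19. Prkdc, the kinase that Ku recruits, averaged 1590 ± 112 and 1720 ± 211, and Lig4, the ligase of the pathway, 292 ± 32.8 and 313 ± 25.8, in CTLA-4 KO and wild type. Xrcc4, the partner of that ligase, had 0.23 with 1 probe set and 0.01 with the other. The 95% intervals of the 5 genes together spanned -0.45 to 0.61.

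Mismatch repair held the only gene called in both fits. Msh6 had 3359, 3082 and 3317 in CTLA-4 KO arrays, against 2396, 2055 and 2117 in wild-type arrays. The groups were far apart relative to their spread, and KO was 1.49 times wild type. On the log2 scale it was 0.57 ± 0.10 higher (adjusted p of 0.0297 in limma, and 0.00226 with the block). Its adjusted p lay between 0.0325 and 0.12 when single arrays were left out, and a term for the Actb ratio gave 0.205, with a difference of 0.64. Exo1, an exonuclease that removes the mismatched strand and also resects breaks for recombination, had 246.3, 280.2 and 161.4 in CTLA-4 KO arrays, against 121.5, 85.18 and 96.77 in wild-type arrays. All KO arrays were above all wild-type arrays, with a ratio of means of 2.27 (1.04 ± 0.24, adjusted p = 0.0636, and 0.0102 with the block). A dim second probe set of Exo1, at a mean of 52.1, had 0.45 and passed in neither fit (adjusted p = 0.44 in limma, and 0.354 with the block). Pms2, of the nicking complex, had 455, 392.4 and 370 in CTLA-4 KO arrays, against 465, 402.5 and 368.9 in wild-type arrays. These values were nearly the same within each number, and the 95% interval of the log2 difference ran from -0.36 to 0.32, while another probe set of Pms2 had -0.46 (adjusted p = 0.239).

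In base excision and single-strand break repair, Ung rose with the block. Ung removes uracil from DNA, and had 1106, 1021 and 934.3 in CTLA-4 KO arrays, against 971.3, 686 and 678 in wild-type arrays. Wild-type array 1 was above KO array 3, while KO was higher within each number (0.40 ± 0.16, adjusted p = 0.252, and 0.0442 with the block). Xrcc1, the scaffold of single-strand break repair, had 518.9, 561.5 and 473.3 in CTLA-4 KO arrays, against 608.4, 628.5 and 600.4 in wild-type arrays. All KO arrays were below all wild-type arrays, but the difference of -0.24 ± 0.13 did not pass (adjusted p = 0.423, and 0.244 with the block). Parp1, which senses nicks, had 0.13 with its brightest probe set, which did not pass. Its next probe sets had 0.33 and 0.36 and passed with the block (adjusted p = 0.0445 and 0.0348), so the probe sets of this gene differ in their call.

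**Figure D2:**
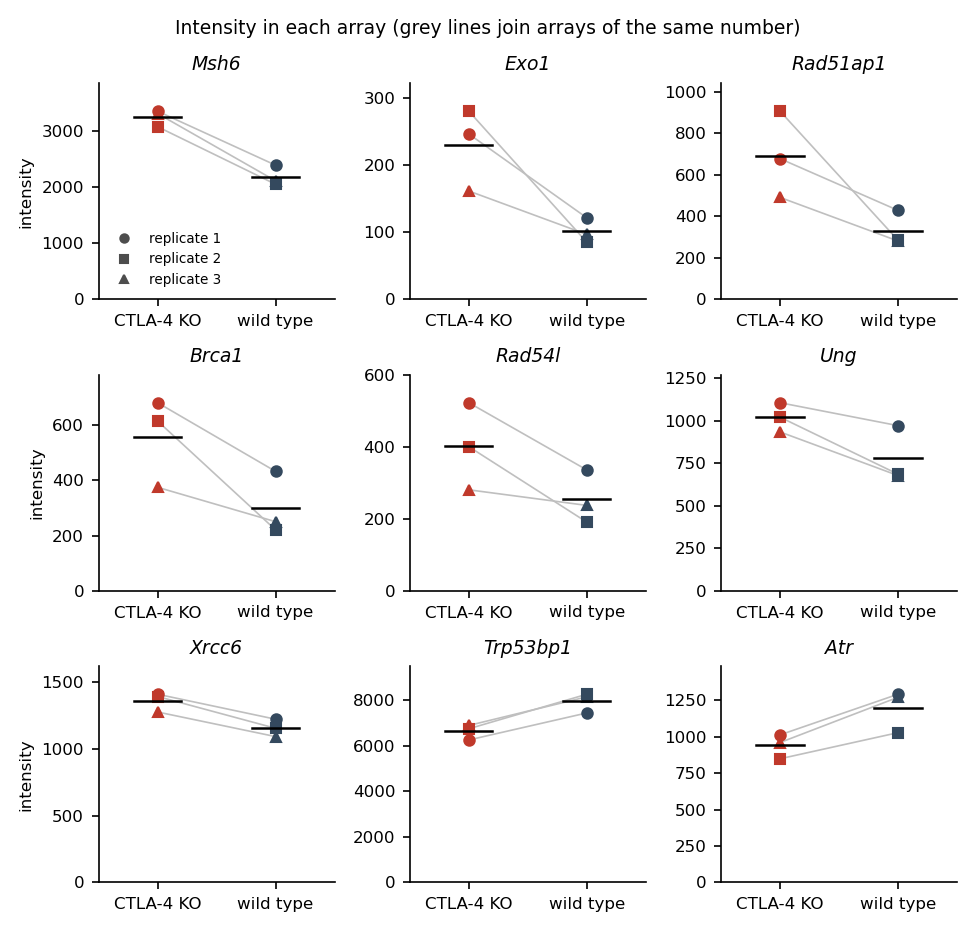
Intensity (linear scale from 0) in each CTLA-4 KO array (red, left) and wild-type array (blue, right) for 9 genes, with the mean as a black bar and a grey line between arrays of the same number. The first 6 genes rose with the replicate block; Xrcc6, Trp53bp1 and Atr had groups that did not overlap but passed in neither fit.

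Checkpoint genes passed in neither fit, and the 8 measured had a median log2 difference of -0.05. Of all genes, 1.19% rose and 0.5% fell without the block, and 5.48% and 3.44% with it. Chek1, the effector kinase of the replication checkpoint, had 564.6, 532.6 and 368.2 in CTLA-4 KO arrays, against 402.9, 331.3 and 301.3 in wild-type arrays. KO was higher within each number, and the adjusted p with the block, 0.0505, just missed the threshold (0.47 ± 0.19, adjusted p = 0.268 without it). Atr, the kinase upstream of Chek1, had 1014, 849.6 and 961.2 in CTLA-4 KO arrays, against 1293, 1029 and 1272 in wild-type arrays. All KO arrays were below all wild-type arrays, and 2 other probe sets had -0.44 and -0.32, but the difference of -0.34 ± 0.13 did not pass (adjusted p = 0.253, and 0.0543 with the block). Trp53bp1, whose product 53BP1 protects broken ends from resection, had 6243, 6734 and 6879 in CTLA-4 KO arrays, against 7427, 8247 and 8133 in wild-type arrays. The groups did not overlap, and the pairs agreed closely at -0.25, -0.29 and -0.24 (-0.26 ± 0.09, adjusted p = 0.191, and 0.0721 with the block). The other checkpoint genes had overlapping groups. Atm, the kinase of double-strand breaks, averaged 1450 ± 273 in CTLA-4 KO and 1750 ± 485 in wild type. Chek2, its target kinase, averaged 350 ± 43.4 and 325 ± 76.5, and Mdm2, the ubiquitin ligase of p53 and itself a p53 target, 1710 ± 80.7 and 1890 ± 219. Mdc1 and Topbp1, adaptors of the ATM and ATR branches, had log2 differences of 0.09 and 0.03.

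By role, the median log2 difference was 0.57 over 3 mismatch repair genes, 0.21 over 4 Fanconi anaemia genes, 0.19 over 5 end joining genes, 0.13 over 3 base excision genes, 0.06 over 8 recombination genes and -0.05 over 8 checkpoint genes. With so few genes a role, and members that are not replicates, these are descriptions. Recombination was the most mixed role, from -0.19 to 1.01, and end joining the narrowest of the roles with 5 or more genes.

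The members were also divided by when in the cell cycle they are transcribed. A list of 13 members generally known to be induced in S phase held Brca1, Brca2, Rad51ap1, Rad54l, Blm, Fanca, Fancd2, Fanci, Exo1, Chek1, Topbp1, Ung and Msh6. Of these 1 rose without the block and 6 with it, or 7.69% and 46.2%, against 1.19% and 5.48% of all genes. None fell in either fit, and 12 had positive differences, with a median of 0.40. Of the other 18 members 0 were called in either fit. Over all genes 1.19% rose and 0.5% fell without the block, and 5.48% and 3.44% with it. This count of 0 depends on the choice of probe set. Parp1, among the 18, was not called by its brightest probe set, but its next ones, at 0.33 and 0.36, passed with the block. At an unadjusted p under 0.05 in limma without the block, 2 of the 18, Atr and Trp53bp1, were lower, as were 852 of 11990 genes. Of the 18, 6 had positive differences. Their median was -0.06, which became 0.03 when arrays were centred on their medians. The S-phase median was 0.43, 0.56 and 0.28 within pairs 1, 2 and 3, and that of the other members was -0.13, -0.04 and -0.06. The difference between the lists was not tested, because the members and the S-phase list were chosen with results of these arrays known. The contrast between the lists is therefore a description that depends on how the list was drawn.

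**Figure D3:**
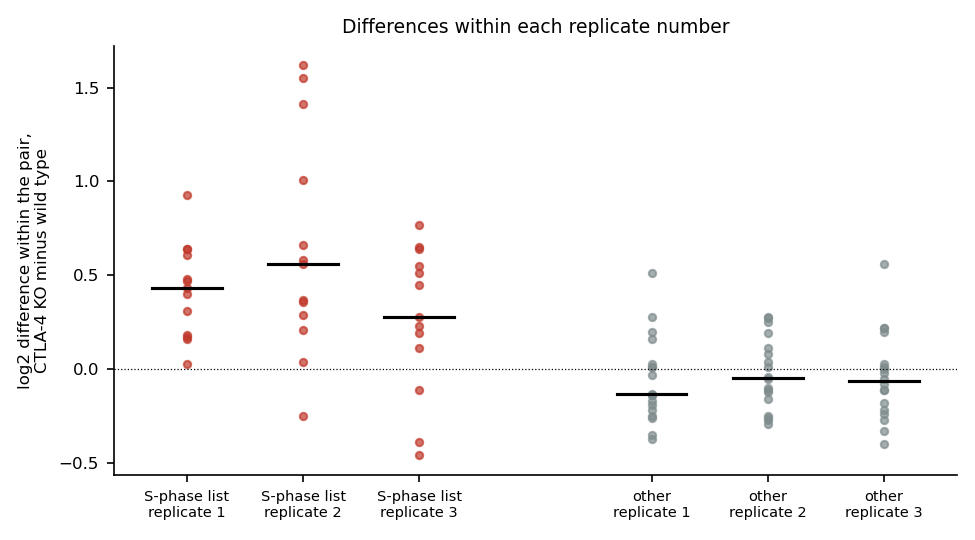
Log2 difference within each replicate number, CTLA-4 KO minus wild type, for the 13 members on the S-phase list (red) and the 18 others (grey); each point is a gene and each bar the median. The red medians are 0.43, 0.56 and 0.28, and the grey medians lie between -0.13 and -0.04.

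Genes of DNA replication and mitosis were set beside these members. Of 29 replication genes 4 rose without the block and 16 with it, or 13.8% and 55.2%, against 1.19% and 5.48% of all genes, and the median was 0.51. Mcm6, Gins3 and Gins4, named after their values were seen, had negative differences of -0.22, -0.12 and -0.11 that did not pass. Of 23 mitosis genes 14 rose without the block and 23 with it, or 60.9% and 100%, and the median was 1.05. The summed intensity of the replication list spanned 51600 to 64200 in CTLA-4 KO and 44900 to 47400 in wild type, and that of the mitosis list 24100 to 37800 and 14600 to 18000. Their part in the differences of the repair genes was not tested. In these bulk samples, more cells in S phase and G2 and more RNA of these genes per cell cannot be told apart. Rrm2, a subunit of ribonucleotide reductase, had 4477, 4816 and 2911 in CTLA-4 KO arrays, against 1922, 1671 and 1606 in wild-type arrays. KO array 3 was the lowest KO array for Rrm2, and likewise for Rad51ap1, Exo1, Brca1, Rad54l, Ung and Chek1, though not for Msh6. This order was not particular to the genes that rose. KO array 3 was also the lowest for uncalled members such as Mre11a, Xrcc6, Pms2 and Atm, though not for Rad50 or Trp53bp1. Other replication genes that rose in both fits were Lig1, the replicative ligase (0.71), Prim1, a primase subunit (0.65), and Mcm5, of the replicative helicase (0.54), and Cdc6 (1.06) and Tk1, at 421 in CTLA-4 KO and 202 in wild type, rose with the block. For mitosis, Ube2c, Mki67, Hmmr, Cdc20, Bub1 and Aurka rose in both fits, by 1.06 to 1.54.

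**Figure D4:**
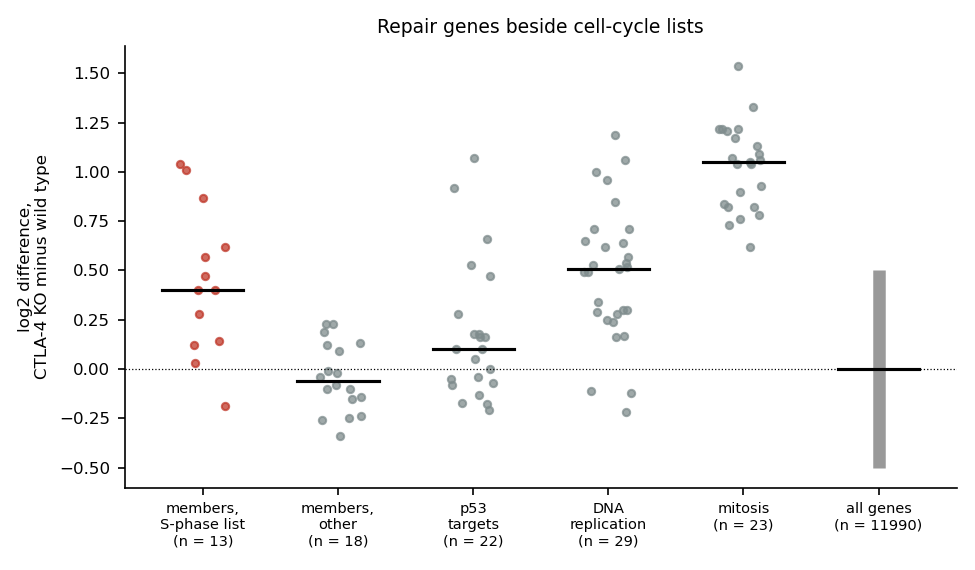
Log2 difference, CTLA-4 KO minus wild type, of single genes in 5 lists (points) and of all 11990 genes (grey bar from the 5th to the 95th percentile, -0.50 to 0.50); black bars are medians. The medians were 0.40 for members on the S-phase list, -0.06 for the others, 0.10 for p53 targets, 0.51 for replication and 1.05 for mitosis.

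Genes that p53 induces are an output of the damage response. None of 22 passed without the block, where 4 were higher at an unadjusted p under 0.05 in limma, against 1129 of 11990 genes. With the block 5 rose, or 22.7%, against 5.48% of all genes. The list median was 0.10. Cdkn1a, which encodes the cell cycle inhibitor p21, had 203.5, 258.4 and 210.1 in CTLA-4 KO arrays, against 172.5, 103.3 and 74.02 in wild-type arrays. All KO arrays were above all wild-type arrays (0.92 ± 0.26, adjusted p = 0.127, and 0.0266 with the block). Perp, a membrane protein gene, averaged 225 ± 71.6 in CTLA-4 KO and 96.6 ± 19.3 in wild type (SD, n = 3 arrays), and the death receptor gene Fas 845 ± 156 and 584 ± 138. The nuclease gene Aen had a log2 difference of 0.47 (adjusted p = 0.181 in limma, and with the block at the threshold, 0.05 after rounding). The mTOR inhibitor gene Ddit4 had 0.66 (adjusted p = 0.504 in limma, and 0.0409 with the block). Its groups overlapped, and its differences within the pairs were 1.37, 0.59 and 0.02. Cdkn1a, Fas and Ddit4 are also known to respond to signals other than p53. Mdm2, a target among the members, had -0.14. The part of p53 in these differences was not tested. With the mean of its probe sets Aen had 0.10, and with the Actb ratio as a term Ddit4 had -0.03.

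Other repair and checkpoint genes, taken from lists of the same roles and of nucleotide excision repair, were 85 in number. Of these 1 rose and 0 fell without the block, or 1.18% and 0%, against 1.19% and 0.5% of all genes. With the block 7 rose and 3 fell, or 8.24% and 3.53%, against 5.48% and 3.44% of all genes. The shares that rose without the block and that fell with it are close to those of all genes. Checkpoint genes made up 5 of the 7. Cdc25b, a phosphatase that triggers entry into mitosis, had 3826, 3749 and 3141 in CTLA-4 KO arrays, against 2057, 2422 and 1710 in wild-type arrays. The groups were well apart, and this was the gene called in both fits (0.80 ± 0.14, adjusted p = 0.0261, and 0.000382 with the block). H2ax, the histone that is phosphorylated around breaks, averaged 3570 ± 666 in CTLA-4 KO and 2260 ± 431 in wild type (SD, n = 3 arrays) and rose with the block (0.66, adjusted p = 0.000952). Cdc25c (1.05), the fork proteins Clspn (0.73) and Tipin (0.37), the recombination motor Rad54b (1.05) and the nucleotide excision gene Rad23b (0.38) rose with it as well. Rad54b was dim, at 77.8 in CTLA-4 KO and 29.7 in wild type, the second of which is under the floor. It passed the filter only through its CTLA-4 KO values, and its place among the 7 depends on that. The genes that fell with the block were Fancm, a fork-remodelling motor protein of the Fanconi pathway, Polm, a polymerase of end joining, and Ddb2, which senses ultraviolet damage. Fancm had 105.7, 82.81 and 69.31 in CTLA-4 KO arrays, against 232.2, 170.7 and 132 in wild-type arrays. The groups did not overlap, and KO was lower within each number (-0.91 ± 0.25, adjusted p = 0.107, and 0.0145 with the block). Polm and Ddb2 had -0.51 and -0.31. No gene passed among 4 other mismatch repair genes, where Mlh3 had -0.29 and Msh5 -0.13, or among 12 other base excision genes, where Apex1 had 0.21 and Mpg -0.18; Msh5 had 0.55 when probe sets prone to cross-hybridisation were left out. In limma without the block, 0 genes of each of these lists had an unadjusted p under 0.05.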

How the data were processed

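Total RNA from sorted T cells was hybridised to Affymetrix arrays as biotinylated cRNA, per the labels' protocols. The authors deposited linear intensity values for 45101 probe sets on 6 arrays. Partek and MAS5 are named in the submitters' processing notes, with no versions. Each array had a mean of 500.003 once the top and bottom 2% were trimmed, the kind of scaling MAS5 applies. Scaling to a shared mean makes every difference relative to the rest of the array, and MAS5 values of dim probe sets are noisy.

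From these, log2(intensity + 16) was computed here, without the 64 control probe sets. The filter kept the 27022 probe sets whose mean log2 value was at or above the 40th percentile, which corresponds to 35.4 in intensity. limma 3.58.1 (R 4.3.3) was fitted to all of them with an intensity trend. Its p-values are two-sided and carry the Benjamini-Hochberg adjustment over all kept probe sets, with a threshold of 0.05. Log2 differences are those of CTLA-4 KO over wild type, and the pseudocount makes them too small for dim genes. Intensities are means ± SD before the log. The number of arrays limits the precision. The titles call the arrays biological replicates, and donor sex differed between arrays 2 and the others, but the number of animals is not given, so the p-values reflect how these samples vary.

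Both genotypes share the replicate numbers 1 to 3. After subtraction of the group means, arrays of the same number correlated at 0.371, 0.24 and 0.254. Each value exceeds 0.1, and the numbers were therefore treated as pairs. The pairing comes from the titles' numbers and this check, which used these same data. The labels do not say what the numbers mark. Arrays of the same number also shared donor sex, and why they deviated together was not tested. The block leaves 2 residual degrees of freedom, against 4 without it.

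The array annotation gave 1 gene for 34958 probe sets, several for 932 and none for 9211, and 34754 were matched to RefSeq (GRCm38.p6) for current symbols. The genes named are Ctla4, every member, and from each other list those called in either fit (at most 6 by smallest p) or else the 2 with the smallest p. Further probe sets of a gene were named after their values were seen. Members and lists were chosen with earlier results of these data known. Alternatives covered the filter, pseudocount, normalization, moderation, array weights, the block, donor sex, RNA quality, the choice of probe set, the threshold and each array left out.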

Additional observations from a re-analysis of the deposited data

How the results depend on the processing

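The 1 repair gene that rose in CTLA-4 KO cells, Msh6, became 0 genes with no filter on dim probe sets, without the intensity trend, with a term for the Actb ratio and at an adjusted p of 0.01. It became 2 with the filter at the 60th percentile (Msh6 and Exo1), 3 with array weights and 3 at an adjusted p of 0.1 (Rad51ap1, Msh6 and Exo1), 6 with the replicate block, and 2 with the block and the Actb ratio together. Leaving out single arrays gave 0 to 2, namely 0 when CTLA-4 KO array 1 or 2 or wild-type array 2 or 3 was dropped, 2 (Rad51ap1 and Exo1) when CTLA-4 KO array 3 was, and 2 (Rad51ap1 and Msh6) when wild-type array 1 was. In each of these fits 0 repair genes fell. Of the repair genes, the block changed no calls beyond the 5 it added. The cause of these changes was not tested. The median of the 31 genes, 0.12, was 0.21 under median centring, where the median of all genes was 0.09, and 0.03 with the Actb term.

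None of the 6 called members changed sign under these alternatives. Of the other members 12 did, with differences from -0.25 to 0.23, as did Msh5 and Ddit4, of which Ddit4 rose with the block. With the Actb term Atm had 0.01, Blm -0.13, Brca2 0.02, Ddit4 -0.03, Pms2 0.09 and Prkdc 0.01, and with the block as well Blm had -0.20 and Topbp1 -0.04. Under median centring Fancg had 0.05, Mre11a 0.08, Nbn 0.01 and Pms2 0.07, and after quantile normalization 0.01, 0.02 and 0.02 for Fancg, Mre11a and Pms2. Mre11a had 0.00 with array weights, as did Pms2 with the Gapdh term (0.00). With the mean over probe sets Fancg had 0.03, Msh5 0.21, Topbp1 -0.04 and Xrcc6 -0.12, and Msh5 had 0.55 without cross-hybridising probe sets. With arrays left out, ranges were -0.02 to 0.33 for Blm, -0.52 to 0.16 for Brca2, -0.05 to 0.28 for Chek2, -0.15 to 0.05 for Fancg, -0.02 to 0.20 for Mdc1, -0.03 to 0.03 for Mre11a, -0.10 to 0.07 for Pms2 and -0.06 to 0.12 for Topbp1. Ctla4 stayed between -2.64 and -2.51 and passed in all settings.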
